A study of Mus musculus with 16 samples.

Results

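The genes described here encode the receptors for interleukin (IL)-33, IL-18 and IL-1 and the adaptor that most of them share. They were chosen by name as 7 of the 52997 gene symbols in the deposited count table: Il1rl1, Il1rap, Il18r1, Il18rap, Il1r1, Il1r2 and Myd88. All 7 had counts, and all 7 passed the low-count filter in regulatory T cells (Tregs), while 3 of them passed it in whole muscle.

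RNA was sequenced from Tregs, a suppressive T cell type defined by the transcription factor Foxp3, and from whole skeletal muscle of mice on the B6 background aged 6 to 8 weeks. Mice either carried a T cell receptor transgene labelled mTreg24 (mTreg24 TCR-tg+, Tg) or lacked it (TCR-tg-, wild type, WT), and all mice used for sorting also carried the Foxp3 GFP reporter, which the whole muscle labels do not mention. Muscle was injured with cardiotoxin, a snake venom toxin that kills muscle fibres. Tregs were sorted 3 days later from WT muscle, Tg muscle, WT spleen and Tg spleen, and also from the spleen of uninjured Tg mice, with 2 libraries per group (10 in all). Whole muscle of Tg and WT mice was taken 8 days after injury, with 3 libraries per group (6 in all). That the WT spleen donors were injured is stated by the series' design text alone. Tg Tregs were sorted as Vβ8-positive cells and WT Tregs as total Tregs, so every genotype comparison of Tregs also compares 2 gates, and the 2 cannot be told apart. The labels do not say whether replicates came from separate animals, so the p-values given here reflect only the spread between libraries, which may be technical.

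The receptors of this family sit in the cell membrane and carry a Toll/IL-1 receptor domain on the inner side. A ligand binds its own chain first, the pair then recruits an accessory chain, and the joined inner domains recruit the adaptor MyD88, IRAK kinases and TRAF6, which leads to activation of NF-kB and MAP kinases. ST2, the product of Il1rl1, is known as a marker of tissue Tregs, including those of injured skeletal muscle, and IL-33 is known to increase the number of such cells.

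Of the 7 genes, 5 lie in 1 cluster on chromosome 1 (mouse build GRCm38, mm10), all on the forward strand. Their order is Il1r2 (40074079 to 40125231), Il1r1 (40225080 to 40317257), Il1rl1 (40429570 to 40465415), Il18r1 (40465552 to 40500854) and Il18rap (40515362 to 40551705). A further family member, Il1rl2, lies between Il1r1 and Il1rl1 at 40324610 to 40367562. Il1rap lies on chromosome 16 (26581704 to 26730117) and Myd88 on chromosome 9 (119335934 to 119341411, reverse strand).

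Promoter sequence is shown for Il1rl1 and Il18rap, because both were higher than in WT spleen in WT muscle and in injured Tg spleen Tregs. Il18r1 was too, but its windows overlap exons by 91 to 114 bases and are not shown. Each window is the 250 bases before an annotated RefSeq start (build GRCm38.p6, forward strand), and capitals mark matches to a GATA motif. The first window is chr1:40429320-40429569, the second is chr1:40439379-40439628 and the third is chr1:40515112-40515361.
Il1rl1, first start: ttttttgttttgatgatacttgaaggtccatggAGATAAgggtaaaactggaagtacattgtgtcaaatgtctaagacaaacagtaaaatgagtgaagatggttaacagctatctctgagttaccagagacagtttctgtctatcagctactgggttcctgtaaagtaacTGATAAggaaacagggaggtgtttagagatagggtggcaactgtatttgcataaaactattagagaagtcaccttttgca
Il1rl1, second start: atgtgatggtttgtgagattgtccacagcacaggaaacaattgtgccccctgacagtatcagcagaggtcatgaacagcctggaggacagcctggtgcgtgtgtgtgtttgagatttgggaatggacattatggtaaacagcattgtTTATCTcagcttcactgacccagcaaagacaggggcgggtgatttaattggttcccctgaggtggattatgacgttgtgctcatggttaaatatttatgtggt
Il18rap: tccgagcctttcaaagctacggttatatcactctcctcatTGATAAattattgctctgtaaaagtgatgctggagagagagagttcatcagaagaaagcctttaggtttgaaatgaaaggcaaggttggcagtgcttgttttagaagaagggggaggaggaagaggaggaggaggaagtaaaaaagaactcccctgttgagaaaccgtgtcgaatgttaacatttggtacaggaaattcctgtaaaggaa
The first Il1rl1 window held AGATAA beginning 217 bases before the start and TGATAA beginning 80 bases before it. The second Il1rl1 window held AGATAA on the reverse strand, 103 bases before its start, and the Il18rap window held TGATAA 210 bases before its start. The Il1r2 window, which is not shown, also held TGATAA, on the reverse strand, 86 bases before its start. Neither motif was in the windows of Il1r1, Il18r1, Il1rap or Myd88. AGATAA was present on either strand in 9.99% of 32851 RefSeq mouse promoter windows of this length, and TGATAA in 7.94%. TGATAA was added to the search after the Il1rl1 window had been read, so its presence there was known when it was counted. The AP-1 motif TGANTCA, present in 6.75% of all windows, was in none of the 11 windows of the 7 genes. The NF-kB motif searched, GGGA and CC with any 4 bases between, was in 17.6% of all windows and in the Il1rap window, and the STAT motif TTCNNNGAA (7.02%) was in windows of Il1r2, Il18r1 and Myd88. These matches describe letters in a window, and binding was not measured in these data. Counts per gene also do not show which Il1rl1 start was used, nor whether the transcripts encode membrane ST2 or its soluble decoy form.

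Depth and sample purity were as follows. Total counts ran from 1986700 to 9116800 in Treg libraries and from 5095999 to 7075420 in whole muscle, so that 3 counts, the upper limit that a count of 0 allows, equal 0.329 CPM (counts scaled to the library total) in the deepest library and 1.51 CPM in the shallowest. All 6 Treg markers (Foxp3, Il2ra, Ctla4, Ikzf2, Cd4, Cd3e) were present in sorted cells, with Foxp3 between 1109 and 2125 CPM. Foxp3 (log2 0.68 in WT, 0.90 in Tg) and Ctla4 (2.25 in both) were called higher in muscle than in spleen. Il2ra was called higher in muscle in Tg (1.52) and lower in injured Tg than in WT spleen (-0.91). B cell markers summed to 26.6 to 32.6 CPM in WT muscle, 14.5 to 19.8 in Tg muscle, 44.8 to 86.4 in WT spleen and 50.3 to 91.95 in injured Tg spleen Tregs. Their part was not tested. Of 20 genes known to respond to tissue dissociation, 16 were called higher in muscle than in spleen Tregs in WT and 16 in Tg, where 9.38% and 4.83% of all genes were called higher, and their summed level was 10300 to 13120 CPM in muscle and 2386 to 2866 CPM in spleen Tregs. The part of this difference in the receptor results was not tested. The low-count filter can admit a gene through muscle libraries alone, so the counts of called dissociation genes are descriptions.

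Il1rl1 encodes ST2, the chain that binds IL-33. It was detected at 181 and 232 CPM in Tregs of WT muscle, at 321 and 420.4 CPM in those of Tg muscle, at 22.1 and 38.6 CPM in WT spleen Tregs, at 107 and 148 CPM in injured Tg spleen Tregs and at 103 and 95.7 CPM in uninjured Tg spleen Tregs. The 5 Treg groups stood in the order Tg muscle, WT muscle, injured Tg spleen, uninjured Tg spleen, WT spleen, and the library values of neighbours in that order did not overlap. Injured over uninjured Tg spleen was not called, with a fitted log2 fold change of 0.33 ± 0.25 (edgeR unadjusted p = 0.198). In WT mice Il1rl1 was 6.79-fold higher in muscle than in spleen Tregs by mean CPM, with a fitted log2 fold change of 2.90 ± 0.27 (SE; edgeR adjusted p = 1.75e-05). In Tg mice the fitted log2 fold change between muscle and injured spleen was 1.74 ± 0.25 (edgeR adjusted p = 0.000725). In bulk samples such as these, fewer cells that express a gene and less RNA per cell cannot be told apart.

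In spleen, Il1rl1 was 4.20-fold higher by mean CPM in injured Tg than in WT Tregs (log2 2.01 ± 0.27 SE, edgeR adjusted p = 0.0024). Between the genotypes in muscle the values did not overlap, but the log2 fold change of 0.84 ± 0.24 did not pass the test (edgeR adjusted p = 0.248). All 3 called differences of Il1rl1 were also called under each of 14 alternative analyses, with log2 values from 2.62 to 3.42 for WT tissue, 1.52 to 1.99 for Tg tissue and 1.72 to 2.52 for spleen genotype.

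**Figure D1:**
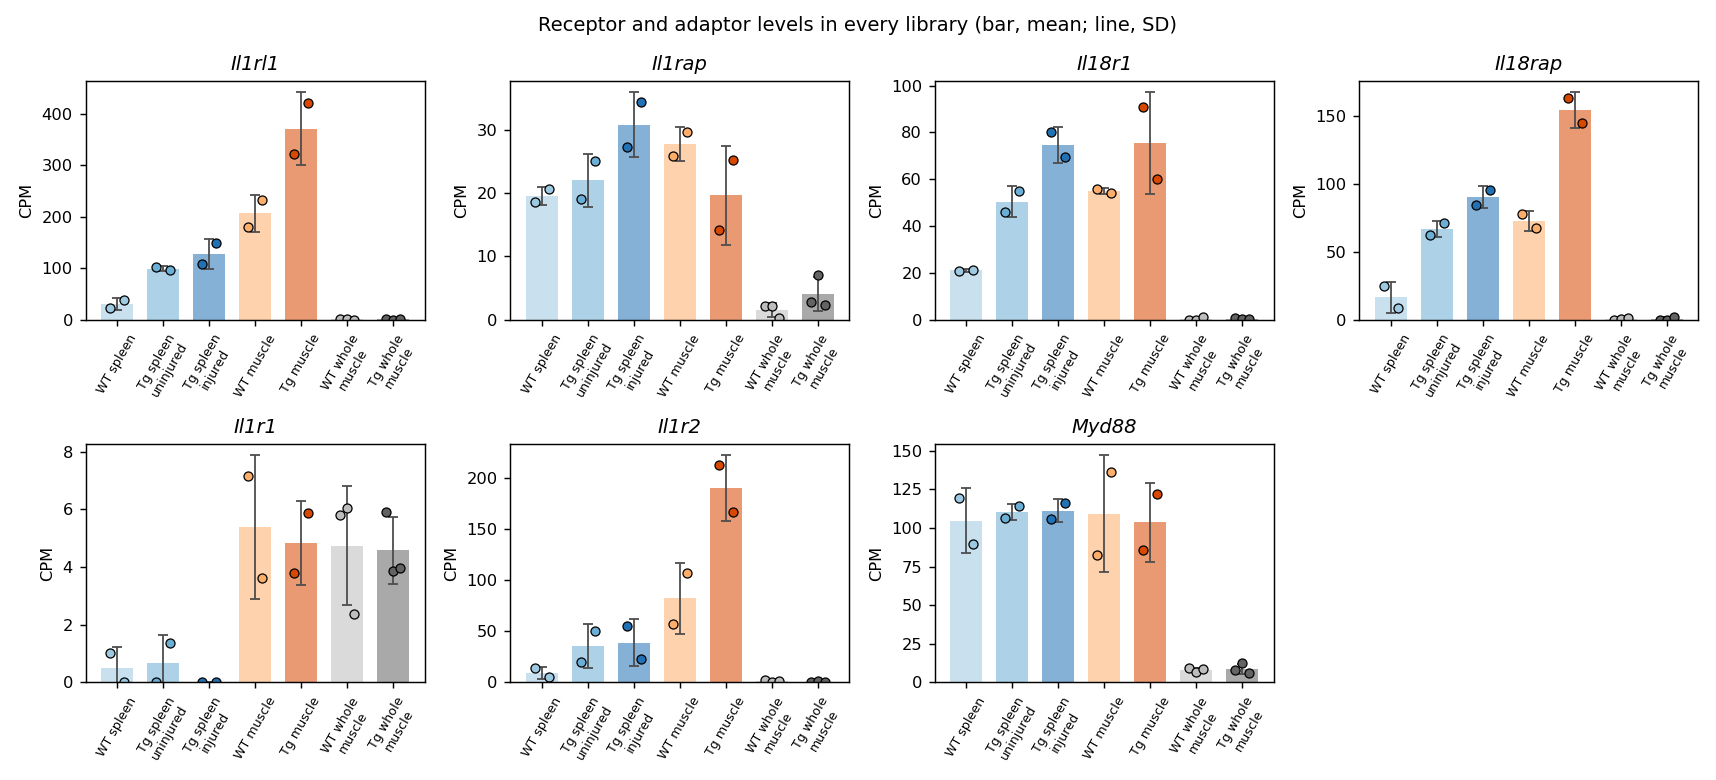
Level of each receptor gene and of Myd88 in counts scaled to the library total (CPM, linear axis from 0) in all 16 libraries, with points for libraries, bars for group means and lines for SD. Il1rl1, Il18rap and Il1r2 are highest in Tg muscle Tregs, Il1r1 stays at or below 7.14 CPM, and Myd88 lies between 82.6 and 136 CPM in every Treg library.

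Il1rap encodes the accessory chain that ST2 and the IL-1 receptor share. Its Treg values varied less between groups than those of Il1rl1: 25.9 and 29.7 CPM in WT muscle, 14.1 and 25.2 in Tg muscle, 18.6 and 20.7 in WT spleen, 27.3 and 34.5 in injured and 19.1 and 25.1 in uninjured Tg spleen. It was called in none of the Treg comparisons. The log2 fold change was 0.69 ± 0.33 for muscle over spleen in WT (edgeR adjusted p = 0.178) and -0.44 ± 0.32 in Tg (edgeR adjusted p = 0.503). An antisense gene, Gm20319, overlaps Il1rap, and the library kit does not mark strand, so reads of these 2 genes may not be told apart.

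Relative to its accessory chain, Il1rl1 varied widely between groups. Per kilobase of annotated exon, Il1rl1 was 1.96 and 3.08 times as abundant as its accessory chain in WT spleen Tregs and 11.5 and 12.9 times in WT muscle Tregs. The ratio was between 6.29 and 8.87 in the 4 Tg spleen libraries and reached 37.4 and 27.5 in Tg muscle Tregs. The 2 WT spleen libraries had the lowest ratios and the 2 Tg muscle libraries the highest. Exon length here covers every annotated exon of a gene, 6.894 kb for Il1rl1 and 11.36 kb for Il1rap, so the absolute ratios depend on the annotated isoforms. The ratios were not tested.

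**Figure D2:**
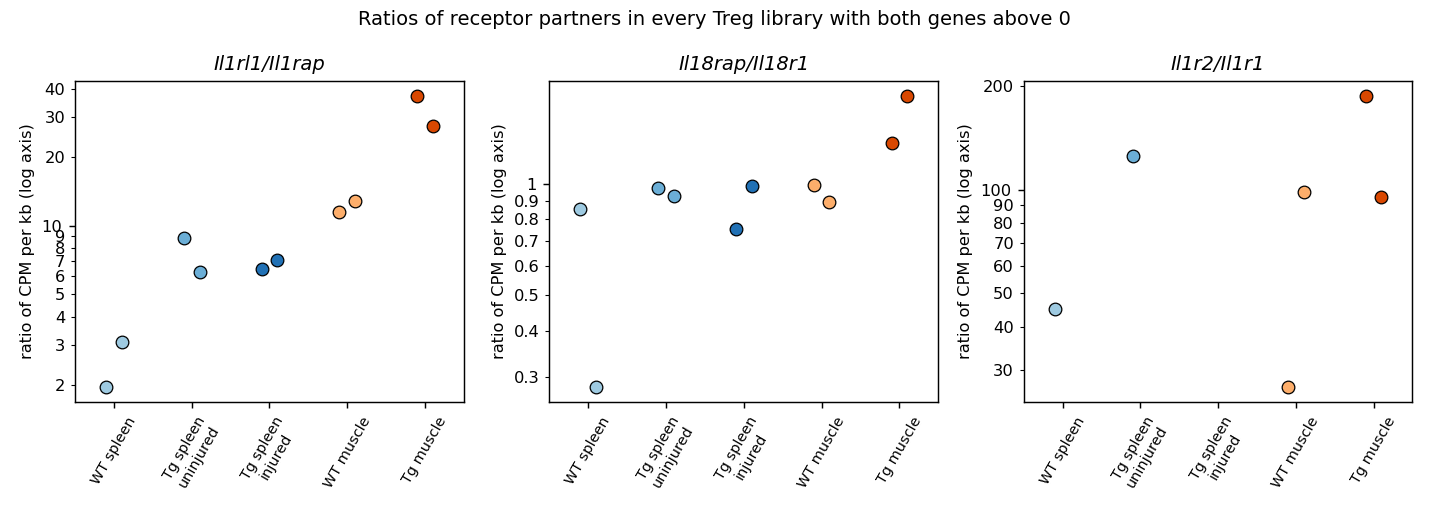
Ratio of CPM per kilobase of exon between receptor partners in each Treg library (log axis), with 1 point per library and no point where the second gene had 0 counts. Il1rl1 over Il1rap runs from 1.96 in a WT spleen library to 37.4 in a Tg muscle library, while Il18rap over Il18r1 stays between 0.282 and 1.73.

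The IL-18 receptor is formed by the binding chain Il18r1 and the accessory chain Il18rap. Il18r1 stood at 56.0 and 54.1 CPM in Tregs of WT muscle, 90.7 and 59.9 in those of Tg muscle, 20.6 and 21.3 in WT spleen, 80.0 and 69.3 in injured Tg spleen and 45.8 and 55.0 in uninjured Tg spleen. WT spleen Tregs were below all other Treg groups, while Tg muscle and injured Tg spleen overlapped, as did WT muscle and uninjured Tg spleen. Il18r1 was higher in WT muscle than in WT spleen Tregs by 1.57 ± 0.24 on the log2 scale (SE; edgeR adjusted p = 0.00045) and higher in injured Tg than in WT spleen Tregs by 1.82 ± 0.24 (edgeR adjusted p = 0.00125). In Tg mice the difference between muscle and injured spleen was 0.20 ± 0.22 (edgeR adjusted p = 0.668), which is under its own error.

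Il18rap showed a wider range. It stood at 77.8 and 67.5 CPM in Tregs of WT muscle, 164 and 145 in those of Tg muscle, 24.7 and 8.44 in WT spleen, 84.3 and 95.7 in injured Tg spleen and 62.4 and 71.2 in uninjured Tg spleen. Both Tg muscle libraries were above all others, and the WT spleen libraries, which differed most between replicates, were below all others. The log2 fold change was 2.44 ± 0.34 for muscle over spleen in WT (edgeR adjusted p = 0.000438) and 2.57 ± 0.34 for injured Tg over WT spleen (edgeR adjusted p = 0.0024). Leaving out WT spleen replicate 1 or 2 in turn moved these values most, to between 1.74 and 3.29 and between 1.86 and 3.41, and both remained called. In Tg mice, muscle exceeded injured spleen by 0.97 ± 0.29 (edgeR adjusted p = 0.0667), and in muscle, Tg exceeded WT by 1.10 ± 0.29 (edgeR adjusted p = 0.211). Neither passed the test, although DESeq2 gave adjusted p = 0.0144 for the former and 0.0298 for the latter. Per kilobase of exon the 2 chains of this receptor were at similar levels, with Il18rap over Il18r1 between 0.752 and 1.73 in all Treg libraries except WT spleen replicate 2 (0.282).

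The IL-1 receptors were read from both a signalling chain and a decoy. Il1r1, the signalling receptor for IL-1, was rare in Tregs: 33 and 33 counts in WT muscle (7.14 and 3.62 CPM), 11 and 26 counts in Tg muscle (3.79 and 5.86 CPM), 2 and 0 in WT spleen, 0 and 0 in injured Tg spleen and 0 and 5 in uninjured Tg spleen. All 4 muscle Treg libraries were above all 6 spleen libraries. Whole muscle, where Treg markers were nearly absent, held Il1r1 at 2.36 to 6.05 CPM, in the same range as muscle Tregs. The part of RNA from other muscle cells in the Treg value was not tested for Il1r1. In Tg mice Il1r1 was at least 6.76-fold higher in muscle than in injured spleen Tregs, taking 3 counts per library as the floor, and was called (edgeR adjusted p = 0.0271). Il1r1 passed the low-count filter only through the muscle libraries, so its call is a description of a gene admitted by the group in which it is high. This call was lost without Tg muscle replicate 2 (adjusted p = 0.0892) and without injured Tg spleen replicate 1 (0.152) or 2 (0.165). In WT mice the ratio of summed counts was 15.6 (95% exact interval 4.15 to 131, counting error only), and the difference was not called (edgeR adjusted p = 0.0725; 0.0329 with no low-count filter).

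Il1r2 encodes the decoy receptor, which binds IL-1 but lacks a signalling domain. It stood at 57.3 and 107 CPM in Tregs of WT muscle, 213 and 167 in those of Tg muscle, 13.6 and 5.11 in WT spleen, 54.9 and 22.9 in injured Tg spleen and 20.1 and 50.4 in uninjured Tg spleen. The Tg muscle libraries were the highest and the WT spleen libraries the lowest, with the 2 Tg spleen groups overlapping each other. Il1r2 was higher in muscle than in spleen Tregs of WT mice by 3.50 ± 0.76 on the log2 scale (edgeR adjusted p = 0.0262), and this call was lost without WT muscle replicate 2 (adjusted p = 0.137), WT spleen replicate 1 (0.0631) or WT spleen replicate 2 (0.19), and with no low-count filter (0.105). In Tg mice the difference between muscle and injured spleen was 2.48 ± 0.64 (edgeR adjusted p = 0.0748; DESeq2 adjusted p = 0.0105). In spleen, injured Tg exceeded WT by 2.21 ± 0.77 (edgeR adjusted p = 0.354). The antisense gene Gm16894 and the unclassified gene Gm37347 overlap Il1r2, and Gm38070 overlaps Il1r1, so some reads may not be told apart. Per kilobase of exon the decoy outnumbered Il1r1 by 26.8 to 187 times in the 4 muscle Treg libraries.

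Il1r2 is also known from neutrophils, whose markers were therefore read beside it. Of 10 neutrophil markers, 5 (S100a8, Mmp8, Retnlg, Ngp and Camp) had 0 counts in all 4 muscle Treg libraries and 9 were under 5 CPM. The exception was Mmp9, a secreted protease, at 134 to 288 CPM in muscle Tregs and at or below 58.5 CPM in spleen Tregs. Mmp9 was called higher in muscle in WT (log2 4.03 ± 0.97, edgeR adjusted p = 0.0445) but not in Tg (2.27 ± 0.84, 0.209). The part of neutrophils in the Il1r2 result was not tested. Mast cells express ST2 at high levels, and 7 of 10 mast cell and basophil markers, including Cpa3, Fcer1a and Ms4a2, had 0 counts in all muscle Treg libraries. The summed level of the 10 was 3.18 to 8.43 CPM there. The 1 marker that exceeded 5 CPM was Hdc, with log2 fold changes of muscle over spleen of 6.31 ± 2.19 in WT (edgeR adjusted p = 0.0657) and 3.58 ± 1.37 in Tg (0.147), neither called. The part of such cells in the Il1rl1 result was not tested. Among 4 markers of type 2 innate lymphoid cells, which also carry ST2, Il13 had 0 counts in muscle Tregs. The summed level of those 4, made up mostly of Il17rb and Il9r, was 48.4 to 74.4 CPM in WT and 99.7 to 103 CPM in Tg muscle Tregs, 19.1 to 38.0 CPM in WT spleen and 94.9 to 117 CPM in injured Tg spleen. This sum was thus higher in the groups with more Il1rl1 in spleen, and its part in the result was not tested. Il9r itself was called higher in WT muscle than in WT spleen (log2 1.48 ± 0.27, edgeR adjusted p = 0.00153). It was also called higher in injured Tg than in WT spleen (2.12 ± 0.27, 0.00108), but not in Tg muscle over injured Tg spleen (0.08 ± 0.24, 0.911). Il17rb was not called in these comparisons. Macrophage markers summed to 4.97 to 19.0 CPM in muscle Tregs, 56.4 to 69.5 CPM in WT spleen and 110 to 119 CPM in injured Tg spleen Tregs, and their part in the spleen genotype results was not tested.

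Myd88, the adaptor, was called in no Treg comparison. It stood at 82.6 and 136 CPM in Tregs of WT muscle, 85.5 and 122 in those of Tg muscle, 120 and 89.9 in WT spleen, 106 and 117 in injured Tg spleen and 107 and 114 in uninjured Tg spleen. All neighbouring groups overlapped, and the largest fitted difference among the 5 comparisons of 2 groups was 0.27 ± 0.25 on the log2 scale, for muscle over spleen in WT (edgeR adjusted p = 0.52). That value was 0.07 when libraries were scaled by their totals, and the sign of the Tg tissue difference turned from 0.10 to -0.10. Fitted values use TMM scaling, which moved the log2 fold change of muscle over spleen by a median of 0.19 in WT and 0.20 in Tg mice over all genes relative to scaling by library total. Myd88 overlaps Acaa1a on the opposite strand and Slc22a14 on the same strand, so its counts may include reads of these genes or lack reads that are shared with them.

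Counted together, 4 of the 7 genes (Il1rl1, Il18r1, Il18rap and Il1r2) rose in WT muscle against WT spleen Tregs, where 9.38% of 13188 genes tested were called higher and 16.2% were called in either direction. Their median log2 fold change was 2.44, beside -0.04 for all genes tested. In Tg muscle against injured Tg spleen Tregs, 2 of 7 rose (Il1rl1 and Il1r1, the latter admitted to the test only through muscle), where 4.83% of all genes were called higher and 7.38% in either direction, with medians of 0.97 and -0.04. Scaled by library total, the same numbers of the 7 genes were called, but the split of all genes turned, with 6.35% called higher and 10.5% lower in WT and 3.3% higher and 5.19% lower in Tg mice. Without Tg muscle replicate 2, injured Tg spleen replicate 1 or replicate 2 this count was 1, while DESeq2, limma-voom and a fit of the compared groups alone each called 4. Thinning every library to the depth of the smallest, which left Il1r1 untested, called 3, as did the fits with no low-count filter and with non-robust dispersion. In WT the number stayed at 4 with no low-count filter, but Il1r1 took the place of Il1r2.

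In injured Tg against WT spleen Tregs, 3 of 7 rose (Il1rl1, Il18r1 and Il18rap), where 0.887% of all genes were called higher and 1.3% in either direction. The median log2 fold change of the 7 genes there was 1.82, beside 0.00 for all genes. In Tg against WT muscle Tregs edgeR called 0 of 7, where 0.318% of all genes were called. Before adjustment, 2 of 7 fell under 0.05 there, as did 1152 of all 13188 genes. DESeq2 called 1 gene, Il18rap, as did limma-voom. Between injured and uninjured Tg spleen Tregs edgeR, DESeq2 and limma-voom called 0 of 7 and 0% of all genes, with 1 of 7 at an unadjusted edgeR p under 0.05, Il18r1 (log2 0.54 ± 0.22), as were 236 of all 13188 genes. The WT muscle, Tg muscle, WT spleen and injured Tg spleen libraries each serve in more than 1 of these comparisons, so the comparisons are not independent.

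**Figure D3:**
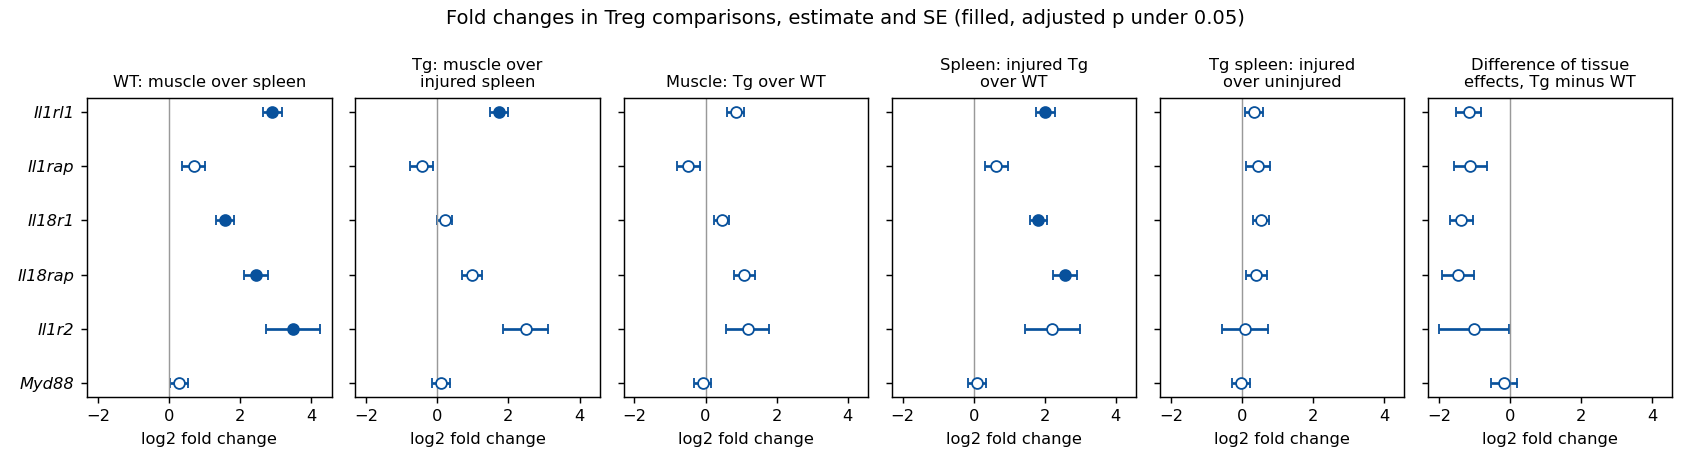
Log2 fold change and SE of 6 of the 7 genes in each Treg comparison, with filled points for an edgeR adjusted p under 0.05 and Il1r1 left out because the injured Tg spleen group held 0 counts of it. Il1rl1 is called in 3 comparisons, and no gene is called between genotypes in muscle, between injured and uninjured Tg spleen, or for the difference of tissue effects.

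The test of whether the tissue difference itself differed between genotypes called 0 of 7 by edgeR, DESeq2 and limma-voom, where edgeR called 0.136% of all genes, 0.0531% higher and 0.0834% lower. The difference of log2 fold changes, Tg minus WT, was -1.17 ± 0.35 for Il1rl1 (edgeR adjusted p = 0.345), -1.37 ± 0.33 for Il18r1 (0.2) and -1.47 ± 0.45 for Il18rap (0.345). Their unadjusted p were under 0.05, as was that of Il1rap (-1.12 ± 0.46), and so were those of 1046 of all 13188 genes. Without WT muscle replicate 1, Il18r1 was called (adjusted p = 0.0494), and without WT spleen replicate 1, Il18rap was called (0.00508). With no low-count filter Il1rl1, Il18r1 and Il18rap were all called.

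Whole muscle held little RNA of these receptors, and the summed level of the 6 Treg markers there was only 7.06 to 13.4 CPM, against 4410 to 7218 CPM in sorted Tregs. Il1rl1 was at 0.579, 1.62 and 0 CPM in WT and at 1.81, 0 and 1.41 CPM in Tg whole muscle. Il18r1, Il18rap and Il1r2 were at or below 2.32 CPM in all 6 libraries, and with Il1rl1 these 4 genes did not pass the low-count filter and were not tested. Il1rap was at 2.17, 2.21 and 0.196 CPM in WT and 2.79, 7.08 and 2.26 CPM in Tg whole muscle. The Il1rap values did not overlap, but the log2 fold change of 1.34 ± 0.72 did not pass the test (edgeR adjusted p = 0.994). Il1r1 (log2 -0.10 ± 0.46) and Myd88 (0.08 ± 0.36) overlapped between genotypes. edgeR, DESeq2 and limma-voom called 0 of the 3 tested genes in whole muscle, with 0 at an unadjusted p under 0.05, where edgeR called 0.0323% of 12377 genes and 598 had an unadjusted p under 0.05.

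The other protein-coding genes of the chromosome 1 cluster were read to see what the 5 clustered receptors shared with their neighbours. Of 10 such genes starting within 500 kb of the outermost receptor or between the receptors, 3 passed the filter in Tregs. Il1rl2, the IL-36 receptor chain, had 1 count in the WT muscle libraries and 40 in the WT spleen libraries, a ratio of 0.0118 (95% exact interval 0.000292 to 0.0697, counting error only), and was called lower in muscle (edgeR adjusted p = 0.0168). Il1rl2 passed the low-count filter only through spleen libraries, so this call is a description of a gene admitted by the group in which it is high. That call was lost without WT muscle replicate 2 (adjusted p = 0.0901) or WT spleen replicate 2 (0.173) and in a fit of the compared groups only (0.0507). Its direction was thus opposite to that of Il1r2, Il1rl1, Il18r1 and Il18rap, which surround it. Map4k4, a kinase gene upstream of Il1r2, ranged from 56.9 to 89.3 CPM in spleen and from 25.1 to 64.9 CPM in muscle of WT mice and was not called in any comparison (WT tissue log2 -0.57 ± 0.38, edgeR adjusted p = 0.356). Rnf149, a ubiquitin ligase gene at the outer edge, was at 9.08 to 19.6 CPM in Tregs and was also not called (WT tissue log2 -0.13 ± 0.41, edgeR adjusted p = 0.876). The nearest downstream genes, Slc9a4 and Slc9a2, which encode sodium-hydrogen exchangers, were at or below 0.539 CPM in all Treg libraries, and Creg2, Rfx8, Gm3646, Mfsd9 and Tmem182 were at or below 3.12 CPM there. The 3 adjacent genes Il1rl1, Il18r1 and Il18rap thus lie between Il1rl2, at or below 7.55 CPM in Tregs, and Slc9a4.

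**Figure D4:**
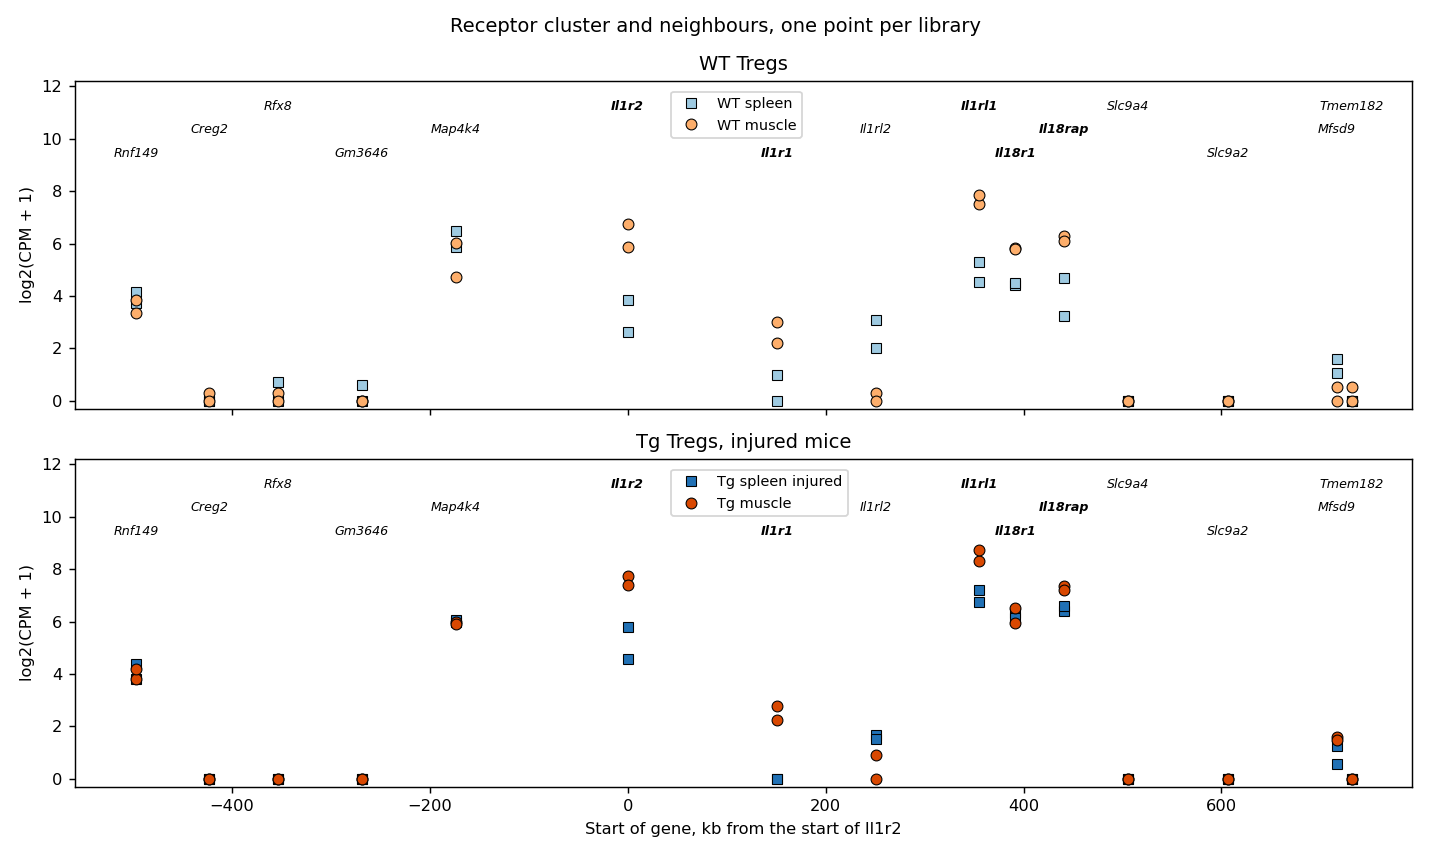
Level of each gene of the cluster and its protein-coding neighbours as log2(CPM + 1), plotted at the distance of its start from the start of Il1r2, with 1 point per library (circles, muscle Tregs; squares, spleen Tregs; receptor names in bold). The receptors lie higher in muscle than in spleen in WT Tregs, Il1rl2 lies lower, and the genes beyond Il18rap lie at or below 2.07 CPM.

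Likeness of pattern was measured over the 10 Treg libraries as the root mean square difference of log2(TMM-scaled CPM + 1), centred on each gene's mean. Each receptor gene and Myd88 was set against 8332 other genes that averaged 10 TMM-scaled CPM or more. Genes with Gm, Rik or clone names, mitochondrial genes, and T cell receptor and immunoglobulin segments were left out. The 3 genes nearest to Il1rl1 were Sytl3 (0.328), Gcnt1 (0.336) and Fam46a (0.345). With a pseudocount of 5 they were Itgae, Id2 and Mmp25, so the nearest genes of Il1rl1 depend on that choice. Nearest to Il1r2 were Havcr2 (0.378), which encodes the receptor TIM-3, Tnfrsf8 (0.477), which encodes CD30, and Cxcr6 (0.573), a chemokine receptor gene. Nearest to Il18r1 were Slc39a4 (0.267), Tmbim1 (0.269) and Rps6ka5 (0.276), and nearest to Il18rap were S100a4 (0.453), Gna15 (0.47) and Nebl (0.474). Il1rap was nearest to Lclat1 (0.152), Ndfip2 (0.163) and Aaed1 (0.164), and Myd88 to Susd6 (0.107), Krcc1 (0.115) and Ubl7 (0.124), genes with a nearly flat pattern. Among the receptors themselves the closest pair was Il18r1 and Il18rap (0.609), followed by Il1rl1 and Il18rap (0.658). By this measure, however, among the compared genes with the receptors included, Il18rap ranked only 1203 by likeness to Il18r1, while Il18r1 ranked 30 by likeness to Il18rap. These are descriptions over libraries of 5 groups, with no test.

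Among the ligands, Il33 was not detected in Tregs, and Il18 and Il1b were at low levels. Il33, an alarmin released by damaged stromal cells, had 0 counts in all 10 Treg libraries, which allows up to 1.51 CPM in the shallowest. In whole muscle Il33 was at 7.23, 9.58 and 7.65 CPM in WT and 6.58, 2.77 and 9.89 CPM in Tg mice, and the groups overlapped (log2 -0.37 ± 0.42, edgeR adjusted p = 0.994). Il18 ranged from 0 to 8.90 CPM in Tregs. Il1b was at 14.6 CPM in Tg muscle Treg replicate 2, at 2.84 CPM in injured Tg spleen replicate 2 and at or below 0.649 CPM in the other 8 Treg libraries. Of 13 ligand symbols, older and newer names included, 9 were in the table, 2 (Il18 and Il1b) were tested in Tregs, and 0 of these were called by edgeR in any of the 6 Treg comparisons.

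Among 3 soluble or membrane inhibitors, Il1rn, the IL-1 receptor antagonist, was at 24.5 and 73.7 CPM in Tg muscle Tregs and at 4.79 and 1.89 CPM in injured Tg spleen Tregs. Both muscle values were higher, and Il1rn was called (log2 4.08 ± 0.93, edgeR adjusted p = 0.0315), but not without Tg muscle replicate 2 (0.0808) or injured Tg spleen replicate 1 (0.146) or 2 (0.265). In WT mice it was at 3.46 and 20.4 CPM in muscle and 4.03 and 1.56 CPM in spleen, with overlapping values and no call (log2 2.51 ± 1.00, edgeR adjusted p = 0.133). Il18bp, the soluble IL-18 binding protein, measured 15.1 and 16.0 CPM in WT spleen Tregs but 6.05 and 3.51 CPM in WT muscle Tregs. It was called lower in WT muscle (log2 -1.55 ± 0.47, edgeR adjusted p = 0.0353), a call lost without WT muscle replicate 2 (0.204) or WT spleen replicate 1 (0.0897) or 2 (0.162), with no low-count filter (0.0624), with thinning to the smallest library (0.0605) and in a fit of the compared groups only (0.117). Sigirr, an inhibitory receptor of the family, was at 166 to 272 CPM in all Treg libraries and was called in no comparison.

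Of 26 genes that act after the receptor, 25 were tested in Tregs. In WT muscle against WT spleen, 6 were called higher and 2 lower, with a median log2 fold change over the list of 0.09. Of all genes there, 9.38% were called higher and 6.87% lower. Scaled by library total, 2 were called higher and 2 lower in WT mice, where 6.35% of all genes were called higher and 10.5% lower. In Tg muscle against injured Tg spleen, 6 were called higher and 0 lower, with a median of 0.23. Of all genes there, 4.83% were called higher and 2.55% lower. In the other 4 Treg comparisons edgeR called 0 of the list. Tnfaip3, which encodes the NF-kB inhibitor A20, was at 985 and 1708 CPM in WT muscle, 935 and 2118 in Tg muscle, 123 and 123 in WT spleen and 147 and 172 in injured Tg spleen Tregs. All 4 muscle values were above the spleen values, with log2 fold changes of 3.65 ± 0.49 in WT (edgeR adjusted p = 0.00471; 0.0704 without WT spleen replicate 2) and 3.46 ± 0.48 in Tg (0.009; 0.114 without injured spleen replicate 1, 0.111 without replicate 2 and 0.0912 in a fit of the compared groups only).

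Nfkbia, which encodes IkB-alpha, was higher in muscle by 1.73 ± 0.21 in WT (edgeR adjusted p = 0.000144) and 2.23 ± 0.21 in Tg (edgeR adjusted p = 3.03e-05). Irak3, an inhibitory IRAK, was higher by 1.63 ± 0.48 in WT (edgeR adjusted p = 0.0324) and 2.93 ± 0.51 in Tg (0.00199). The WT call of Irak3 was lost with scaling by library total (edgeR adjusted p = 0.0548), in a fit of the compared groups only (0.106) and without WT muscle replicate 2 (0.26), WT spleen replicate 1 (0.0509) or WT spleen replicate 2 (0.254). Map3k8, a kinase that acts upstream of ERK, was called higher in Tg muscle (1.92 ± 0.27, edgeR adjusted p = 0.000325) and was at 0.36 ± 0.26 in WT (0.386). Of the 6 genes called higher in each genotype, 3 (Tnfaip3, Nfkbia and Irak3) encode known inhibitors of this signalling. The other 3 were the kinase genes Irak2 and Mapkapk2 in both genotypes, with Tab2, an adaptor of the kinase TAK1, in WT and Map3k8 in Tg. In WT, Irak2 stood at 0.75 ± 0.23, Mapkapk2 at 0.78 ± 0.23 and Tab2 at 0.71 ± 0.18, and these 3 calls were lost with scaling by library total and in a fit of the compared groups only. They also depended on single libraries, with adjusted p of 0.0595 to 0.306 without WT spleen replicate 1 or 2 or WT muscle replicate 2 where lost. In Tg, Irak2 stood at 1.07 ± 0.23 and Mapkapk2 at 1.08 ± 0.23, and each lost its call when injured spleen replicate 1 was left out (edgeR adjusted p = 0.129 and 0.0911), among other libraries. Map3k3, a kinase gene, was called lower in WT (-1.15 ± 0.30, edgeR adjusted p = 0.0177), but not in a fit of the compared groups only (0.0795) or with thinning (0.0565), nor without WT muscle replicate 2 (0.147) or WT spleen replicate 1 (0.122). Peli2, a ubiquitin ligase gene, had 48 counts in WT spleen Tregs and 0 in WT muscle Tregs, at least 14.4-fold lower with a floor of 3 counts per library (edgeR adjusted p = 0.00426). Peli2 passed the low-count filter only through spleen libraries, so its call is a description of a gene admitted by the group in which it is high. The most abundant uncalled genes of the list, Ikbkb (319 to 509.9 CPM) and Peli1 (173 to 442 CPM), had log2 fold changes of -0.34 ± 0.14 and 0.24 ± 0.46 in WT tissue. The dissociation genes given above moved between tissues in the same comparisons, and their part in these signalling results was not tested.

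**Figure D5:**
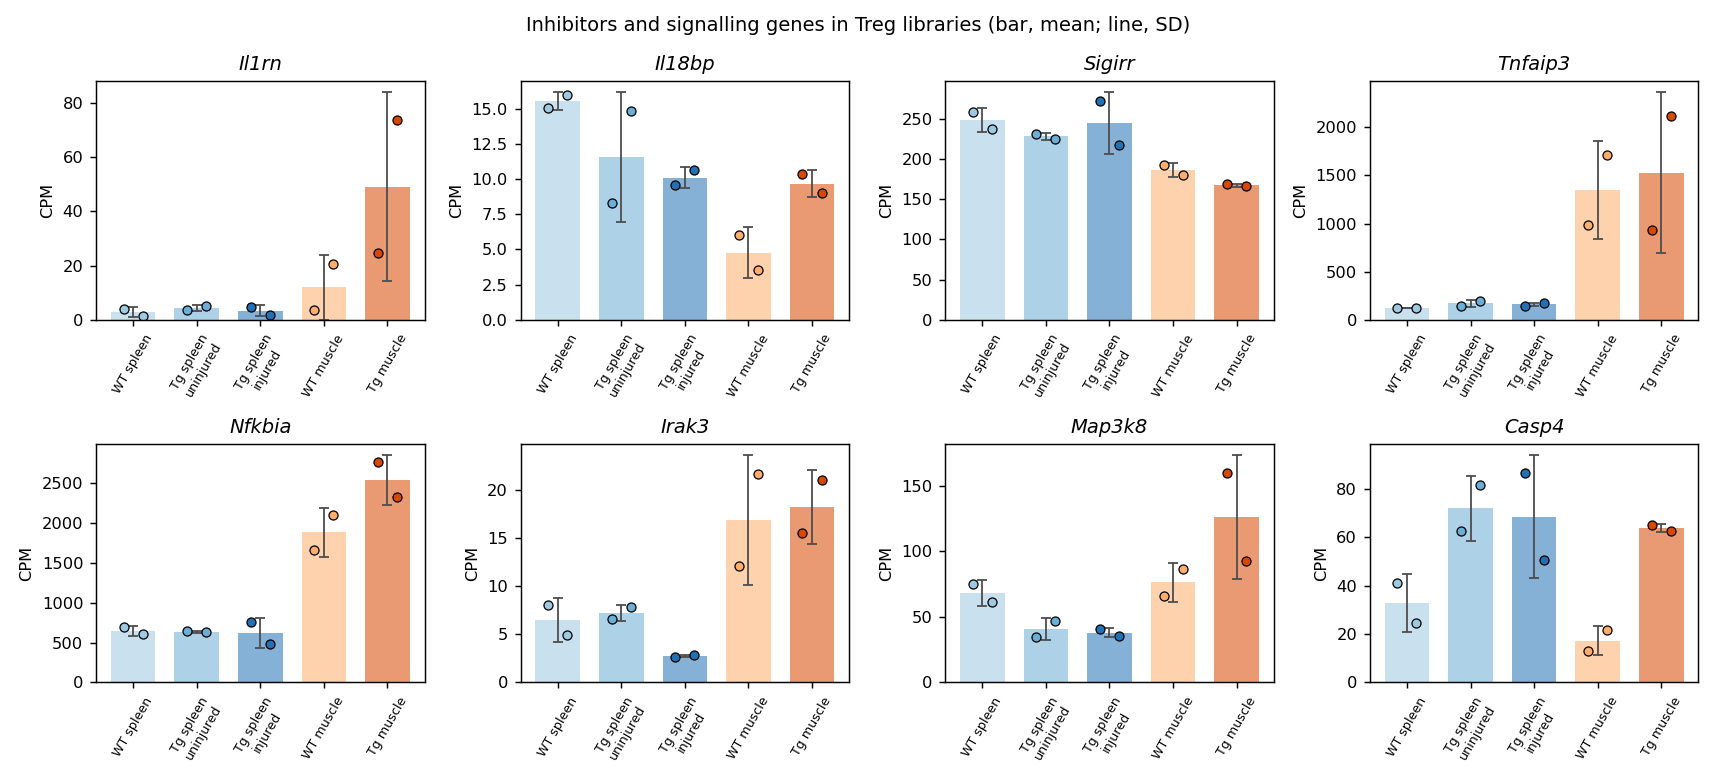
Level in CPM (linear axis from 0) of inhibitors and signalling genes in the 10 Treg libraries, with points for libraries, bars for means and lines for SD. Tnfaip3 and Nfkbia lie higher in all 4 muscle libraries than in all 6 spleen libraries, Sigirr lies between 166 and 272 CPM throughout, and Casp4 is lowest in WT muscle.

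Of 9 genes that process or release the ligands, 8 were tested in Tregs. Casp4, an inflammatory caspase, was at 64.8 and 62.6 CPM in Tg and 12.97 and 21.5 CPM in WT muscle Tregs, and was the single gene of this list called in any Treg comparison, one in which 0.121% of all genes were called higher (log2 1.85 ± 0.33, edgeR adjusted p = 0.0328). That call was lost without Tg muscle replicate 1 (0.155) or 2 (0.0845), in a fit of the compared groups only (0.189) and with a replicate block (0.0628). Pycard, the inflammasome adaptor, was at 230 to 471 CPM and Gsdmd, which forms pores in the membrane, at 127 to 179 CPM in Tregs, and neither was called.

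Genes known from ST2-positive tissue Tregs were read beside Il1rl1. Of 14 such genes 12 were tested, and all 12 rose in WT muscle against WT spleen Tregs (median log2 3.12), 9 rose in Tg muscle against injured Tg spleen (1.98), 3 rose in injured Tg against WT spleen (0.71), and edgeR called 0 in the other 3 Treg comparisons. Of all genes, 9.38%, 4.83% and 0.887% were called higher in WT tissue, Tg tissue and spleen genotype, respectively. The low-count filter can admit a gene through muscle libraries alone, so these counts are descriptions of the list. Scaled by library total the numbers were 11 in WT and 8 in Tg tissue, with the call of Batf lost in both (edgeR adjusted p = 0.0717 and 0.051). In WT, Batf also lost its call in a fit of the compared groups only (0.0713) and Ccr8 with no low-count filter (0.105). In Tg, Nfil3 lost its call with thinning (0.0522). The calls of Pparg, Batf, Ccr8 and Nfil3 in WT and of Gata3, Batf, Nfil3 and Ccr2 in Tg also depended on single libraries. The dissociation genes moved in the same tissue comparisons, and their part in these results was not tested. Areg, the repair factor amphiregulin, was at 133 and 176 CPM in WT muscle, 228 and 194 in Tg muscle, 2.52 and 3.11 in WT spleen and 3.83 and 0.473 in injured Tg spleen Tregs. It rose with tissue by 5.91 ± 0.60 in WT (edgeR adjusted p = 0.000278) and 6.79 ± 0.60 in Tg (0.000193). Between the spleen groups, where Il1rl1 was 4.20-fold higher in Tg, Areg was not called (log2 -0.44 ± 0.87, edgeR adjusted p = 0.941). Areg lay near the floor in spleen, where 3 counts equal 0.709 CPM in injured Tg replicate 2. These values therefore cannot show whether Areg follows Il1rl1 there.

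Il10, a suppressive cytokine, also rose with tissue, by 4.99 ± 0.39 in WT (edgeR adjusted p = 4.61e-06) and 5.92 ± 0.43 in Tg (3.51e-06), and was at 3.11 and 1.18 CPM in injured Tg spleen against 12.1 and 4.44 CPM in WT spleen (log2 -1.77 ± 0.54, adjusted p = 0.173). Klrg1, a receptor of differentiated Tregs, was higher in Tg spleen: it was at 454 and 469 CPM in injured Tg and 50.3 and 86.2 CPM in WT spleen Tregs (log2 2.72 ± 0.41, edgeR adjusted p = 0.0301). That call was lost when any 1 of the 4 libraries was left out (adjusted p = 0.105 to 0.208) and with no low-count filter (0.0989). Itgae, the integrin chain CD103, rose in the same comparison by 1.44 ± 0.25 (edgeR adjusted p = 0.0202; 0.145 to 0.231 with 1 of the 4 libraries left out), and Rora, a transcription factor gene, rose by 1.30 ± 0.17 (0.00125). The most abundant uncalled genes there were Ccr2 (1.79 ± 0.37, edgeR adjusted p = 0.0883) and Gata3 (0.47 ± 0.16, 0.233).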

How the data were processed

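The authors deposited raw read counts as whole numbers, with 52997 gene symbols in rows and 1 column per library. Per the submitters' processing notes, reads were aligned with STAR 2.5.4 to mm10 and counted with featureCounts, for which the sources used here give no version, annotation or strand setting. The kit described in the labels' protocols cuts amplified, oligo(dT)-primed cDNA with a transposase and so keeps no strand information. Labels and design text differ in the number of sorted cells, so none is used. Intervals and floors cover counting error only, since reads carry no molecular identifiers.

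From the deposited counts, CPM were computed by library total. Tests were run in R 4.3.3 with edgeR 4.0.16 (TMM scaling after filterByExpr on the groups, robust glmQLFit, glmQLFTest, Benjamini-Hochberg over all genes tested, called at an adjusted p under 0.05). The 10 Treg libraries shared 1 fit of 5 groups (13188 genes, 5 residual degrees of freedom), and whole muscle had its own (12377 genes, 4 residual degrees of freedom). SEs were approximated from the test statistic. The procedure was also run on simulated counts with the same dispersion for every gene. These data do not share that setting, so the run does not bear on the calls given here. Per-kilobase values use the length of all annotated exons of a gene in GENCODE vM21 gene models on GRCm38, so ratios between genes depend on the annotated isoforms. Promoter windows are from RefSeq. The genes and lists were chosen with earlier results of these data known. Named list genes were all expressed ligands, inhibitors and other receptors, and otherwise up to 4 called genes by size of change and up to 2 uncalled by level. Alternatives were other scalings and filters, DESeq2 1.42.0, limma-voom (limma 3.58.1), non-robust dispersion, a replicate block, thinning, fits of the compared groups only and leaving out each library.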

Additional observations from a re-analysis of the deposited data

How the results depend on the processing

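The number of the 7 genes called by edgeR was unchanged under every alternative run for injured Tg against WT spleen Tregs (3), injured against uninjured Tg spleen (0) and whole muscle (0 of 3 tested). In WT muscle against WT spleen it was 4 and ranged from 3 to 4 when 1 library was left out. In Tg muscle against injured Tg spleen it was 2, against 4 with DESeq2, 4 with limma-voom, 4 in a fit of the compared groups only and 3 with thinning, with no low-count filter or with non-robust dispersion, and it ranged from 1 to 2 when 1 library was left out. In Tg against WT muscle Tregs it was 0, against 1 with DESeq2, 1 with limma-voom and 2 with no low-count filter. For the difference of tissue effects it was 0, against 3 with no low-count filter, and it ranged from 0 to 1 when 1 library was left out. The cause of these changes was not tested.

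The labels do not tie same-numbered libraries together. With 2 libraries per group, the 10 pairs of Treg groups give 10 distinct correlations of same-numbered libraries, from -0.07 to 0.16, of which 4 were over 0.1, and whole muscle gave 3 from -0.03 to 0.00, so the numbers were not taken to pair the libraries. A replicate block left the number of the 7 genes called at 4, 2, 0, 3, 0 and 0 in the 6 Treg comparisons and 0 in whole muscle, and gave adjusted p = 0.0628 for Casp4. Of 651 alternative fold changes of the 7 genes, 598 kept direction and call, 20 became called, 7 lost their call, 26 uncalled ones changed sign and 0 called ones reversed. The number of all genes called ranged across alternatives from 887 to 2768 (WT tissue), 452 to 1377 (Tg tissue), 10 to 361 (muscle genotype), 57 to 372 (spleen genotype), 0 to 5 (spleen injury), 3 to 241 (difference of tissue effects) and 2 to 11 (whole muscle). Il1r1 in Tregs and 4 of the 7 genes in whole muscle lay near the 3-count floor, which limits what could be detected.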
